A study of Canis lupus familiaris with 15 samples.

Results

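Osteoblastic osteosarcomas made up 11 of the 15 primary canine tumors on the arrays, and the dogs with a short and a long disease-free interval (DFI) were compared within this subtype alone. A tumor was taken as osteoblastic where the study's table of patients lists it so under the dog's number, and its cohort came from the sample title. The DFI < 100 day cohort held 5 such dogs (173175, 184844, 208756, 212759 and 223986) and the DFI > 300 day cohort held 6 (168327, 180119, 180223, 190030, 193231 and 208513). The mixed-subtype comparison of 8 against 7 dogs adds 3 giant cell tumors, all from DFI < 100 dogs, and 1 poorly differentiated tumor from a DFI > 300 dog. All tumors came from the limbs, were frozen at amputation before any chemotherapy, and were followed by doxorubicin or a platinum drug. The DFI < 100 osteoblastic cohort was 4 castrated males and 1 spayed female of 4.4 to 10.8 years, with 2 Greyhounds, a Rottweiler, a Labrador Retriever and a Golden Retriever. The DFI > 300 cohort was 3 castrated males and 3 spayed females of 7.1 to 13.4 years, with 4 dogs of mixed breed, 1 Greyhound and 1 Golden Retriever. All 5 tumors of the short cohort lay in the humerus or femur, against 4 of 6 in the long cohort. Age averaged 7.48 ± 2.93 years (SD, n = 5) against 10.5 ± 2.48 years (SD, n = 6), and the 2-sided exact permutation p was 0.104. Doxorubicin was given to 2 of 5 and 3 of 6 dogs.

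Osteosarcoma is a malignant tumor of bone-forming cells, and the osteoblastic subtype is named for the mineralising matrix, or osteoid, that its cells lay down. A frozen piece of such a tumor also holds vessels, fibroblasts, osteoclasts that resorb bone, macrophages and other cells, and a bulk array measures the RNA of all of them together. Fewer cells of a type and less RNA per cell cannot be told apart in such data. Dividing tumor cells need new ribosomes as well as DNA replication and mitosis, and the transcription factor MYC is known to drive many of the genes for ribosome assembly. Collagens, fibulins, laminins and integrins form the matrix around cells and anchor cells to it.

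Each dog had 1 array, with a median intensity of 48.6 to 53.9 over probesets in the 11 osteoblastic arrays. RNA quality, read as the log2 ratio of 3′ to 5′ control signals, was 2.895 ± 0.54 (SD, n = 5) in the short and 3.19 ± 0.91 (SD, n = 6) in the long cohort, with an exact permutation p of 0.621. Values are log2 of the PLIER intensity that the authors deposited. The RPTR reporter controls, 64 probesets on each array, set the level that a signal had to pass to be described, 6.85 on the log2 scale (their 95th percentile, averaged over the 11 arrays). Of 42860 probesets, 14190 lay above it by their mean, and of 15115 named genes, 6322 did so on their brightest probeset. A difference is the mean of the DFI < 100 cohort minus the mean of the DFI > 300 cohort on the log2 scale, so that 1 is a 2-fold difference.

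Osteoblast markers were bright in these tumors. Of 7 osteoblast markers measured, 6 were above the RPTR level: COL1A1 (collagen type I) at a mean of 13.09, SPP1 (osteopontin) at 11.79, IBSP (bone sialoprotein) at 11.09, ALPL (alkaline phosphatase) at 10.97, PTH1R at 9.96 and RUNX2, the master transcription factor of osteoblasts, at 8.60. Osteocalcin (BGLAP) averaged 5.91, below the level. The wider list of osteoblast and bone matrix genes was split, with 6 of 14 members higher in the short cohort, 8 lower and a median difference of -0.021. Its mean level was 10.85 in the short and 10.78 in the long cohort, but also 10.33 to 11.34 in the giant cell tumors and 10.96 in the poorly differentiated one, so these genes did not set the osteoblastic subtype apart. RUNX2 itself differed by 0.51 ± 0.44 (SE), from 6.98 to 9.77 over the 11 dogs. Leaving out 1 dog moved this difference from 0.24 (without 180223) to 0.74 (without 208756), and it was 0.17 with age as a covariate. All 8 macrophage markers were above the level, and 4 were higher and 4 lower in the short cohort. None of 7 T and NK cell markers and none of 5 adipocyte markers passed it on average.

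No probeset passed an adjusted p of 0.05 in the osteoblastic comparison (0% of 42860, limma with Benjamini-Hochberg adjustment), and the smallest adjusted p was 0.962. At an unadjusted p under 0.05 the limma fit called 1844 probesets, fewer than the 2143 that this threshold gives by chance if nothing differs. The methods' t-test called 1834 at that threshold and 0 after adjustment. An exact test that permuted the 11 dogs in all 462 ways called 1964, and 0 after adjustment over all probesets. The comparison of all 15 dogs also called 0% of the 42860 probesets after adjustment. Among the 6322 genes above the RPTR level, 2.45% were higher and 2.53% lower at an unadjusted p under 0.05, and 53.8% were higher in sign, with a median difference of 0.03. In the comparison of all 15 dogs the same shares were 2.01%, 1.80% and 52.3%, with a median of 0.02. The values below are therefore descriptions of how these 11 tumors differed, and each gene described has an adjusted p of 0.962 to 0.964 on the probeset given first. On the probeset used, the DFI > 300 mean of MCM2, MYC, NUP88, GPAA1, IGF2BP1, PTGES, TNFRSF11B and CENPS was below the RPTR level. The DFI < 100 mean of SEPTIN11, ANK3, CTSO, COL14A1, ECSCR, GPC3, NPY and SYNJ1 was below it too. These probesets passed the level through the other cohort alone, so the sizes of their differences are taken against signal at background and no fold is given for them. NUP88, GPAA1 and PTGES have brighter probesets above the level, whose differences are given below.

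Probesets above the RPTR level with an unadjusted p under 0.05 and a difference of at least 2-fold numbered 33 higher (0.233% of 14190) and 130 lower (0.916%) in the short cohort. Leaving out dog 190030 left 10 higher, and leaving out dog 173175 gave 74. Without dog 193231 the lower ones numbered 257, and without the 3 Greyhounds 329. The same rule on all 15 dogs gave 10 higher and 43 lower. The 163 osteoblastic probesets included 108 with 1 gene name, which stood for 25 higher and 51 lower genes. Of these 76 genes, 41 had an unadjusted p of 0.05 or more when the subtypes were mixed, 14 of the higher and 27 of the lower, and are called hidden here. All of these counts ask only for a mean above the RPTR level over the 11 arrays. They therefore include probesets that passed it through a single cohort, such as those of IGF2BP1, MCM2, ANK3 and SEPTIN11. The member counts of the gene lists below follow the same rule. Both comparisons share the 11 osteoblastic arrays, and their values are given side by side only.

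Genes of cell division and of ribosome assembly averaged higher in the tumors of the DFI < 100 dogs. The mitosis list had 43 of 47 members above the RPTR level higher, beside 53.8% of all genes, and 4 lower, with a median difference of 0.48 against 0.16 with all 15 dogs. The list of S phase genes, which copy the DNA, had 24 of 28 higher, with medians of 0.47 and 0.23. Ribosome biogenesis and MYC target genes had 27 of 31 higher, with medians of 0.39 and 0.23. At an unadjusted p under 0.05, 3 mitosis, 7 S phase and 5 ribosome biogenesis genes were higher and 0 were lower, beside the 2.45% and 2.53% of all genes given above.

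The dogs of the long cohort were far from alike in these lists. The mean over the mitosis list was 8.52, 9.23, 8.74, 9.21 and 8.57 in the DFI < 100 dogs, in the order given above, while the DFI > 300 dogs ran from 7.45 to 9.62 with a median of 8.33. Of the DFI > 300 dogs, 3 lay below every DFI < 100 dog, and dog 208513, a Greyhound, lay above them all. For the S phase list the DFI < 100 means were 8.83, 9.26, 8.84, 9.15 and 8.98, and the DFI > 300 means ran from 7.92 to 9.26 with a median of 8.49. The lowest value of all 3 lists was that of dog 190030, at 13.4 years the oldest of the 11. Without that dog the mitosis median was 0.23, and with age as a covariate it was 0.25. The 3 giant cell tumors, which count as DFI < 100 in the mixed comparison, had mitosis means of 8.61, 7.78 and 8.53, and 1 of them lay under every osteoblastic DFI < 100 tumor. A fit of the giant cell against the osteoblastic DFI < 100 tumors called 1 probeset of 42860 at an adjusted p under 0.05, or 0.00233%, and that probeset lay below the RPTR level.

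**Figure D1:**
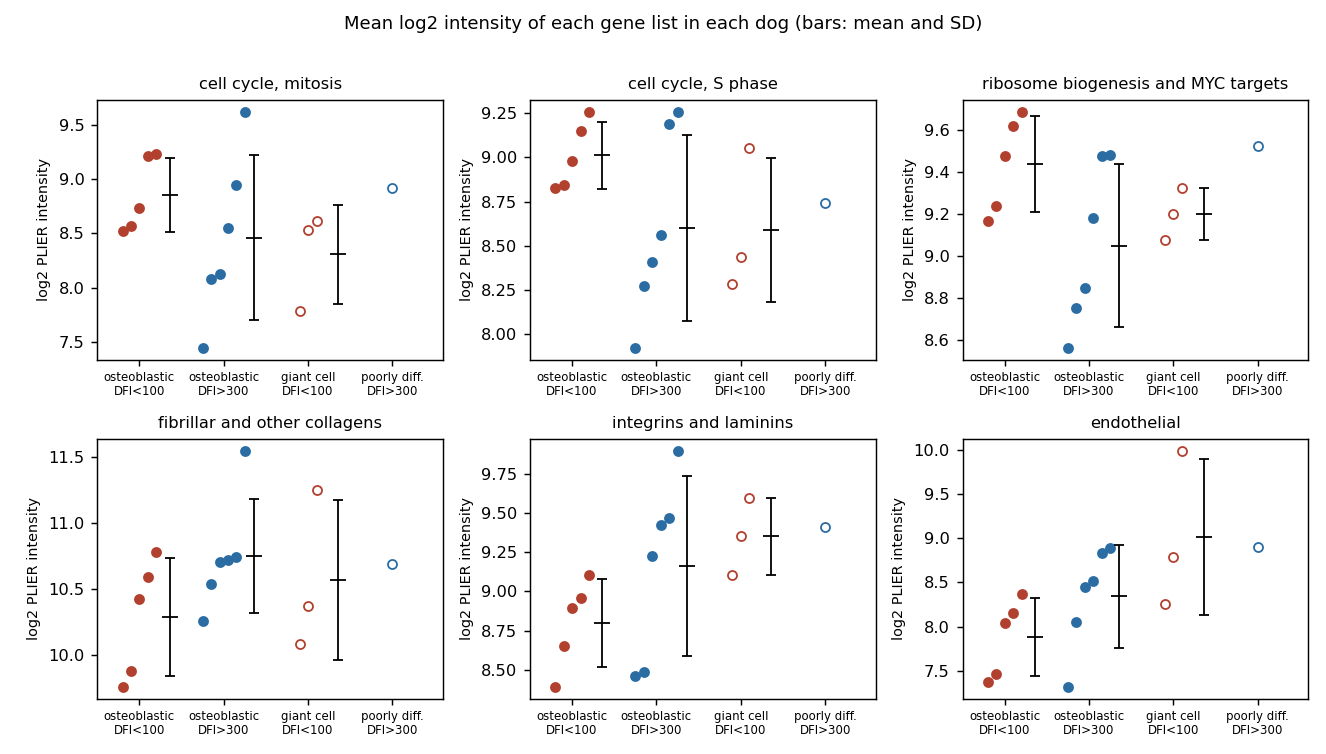
Mean log2 PLIER intensity over the members of 6 gene lists (vertical axes) in each dog, by subtype and cohort (horizontal axes), where filled points are osteoblastic tumors, open points are the other subtypes, red is DFI < 100, blue is DFI > 300, and bars give the mean and SD of groups of more than 1 dog. The mitosis means of the 5 osteoblastic DFI < 100 tumors lie between 8.52 and 9.23, inside the wider DFI > 300 range of 7.45 to 9.62.

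Among the genes that make ribosomes, BMS1, a GTPase needed to assemble the small ribosomal subunit, was separated between the cohorts. It read 9.77, 10.08, 9.45, 9.76 and 9.56 in the DFI < 100 dogs and 8.03 to 9.19 with a median of 8.57 in the DFI > 300 dogs, so the cohorts did not overlap. Its difference was 1.09 ± 0.23 (SE), or 2.13-fold, against 0.75 ± 0.24 (SE) with all 15 dogs. Cohorts that did not overlap were found for 6 higher genes (0.0949% of the 6322 above the level) and 13 lower genes (0.206%) on the brightest probeset. A random split of the dogs gives full separation in a given direction in 1 of 462 splits, a share of 0.00216. Neither the higher nor the lower share exceeds this, so the lack of overlap is a description only. TRMT10C, a subunit of the enzyme that processes mitochondrial transfer RNA, also had no overlap, with 8.77, 9.51, 9.01, 8.71 and 9.63 against 6.83 to 8.62 with a median of 7.88. The other higher genes without overlap were CENPS, a kinetochore and DNA repair protein, GDI2, PSMA3 and LOC482976. CENPS, like the lower genes SEPTIN11 and SYNJ1, passed the RPTR level through a single cohort. The TRMT10C difference was 1.30 ± 0.31 (SE) and 1.14 ± 0.29 (SE) with all 15 dogs. MYBBP1A, a nucleolar protein of ribosomal RNA synthesis, differed by 1.19 ± 0.42 (SE), and EXOSC8, a subunit of the RNA-trimming exosome, by 1.16 ± 0.36 (SE). In both, 4 of the 5 DFI < 100 values lay above every DFI > 300 value.

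SRM, the synthase of the polyamine spermidine and a known MYC target, was one of the hidden genes. It read 9.82, 8.40, 8.34, 8.63 and 8.61 in the DFI < 100 dogs and 6.52 to 8.37 with a median of 7.67 in the DFI > 300 dogs. Here 4 of 5 short-cohort dogs lay above every long-cohort dog, and the difference of 1.16 ± 0.35 (SE) became 0.56 ± 0.39 (SE) when the other subtypes were added. The 3 giant cell tumors read 7.38, 8.48 and 7.02. MYC itself was hidden in the same way, at 1.13 ± 0.45 (SE) against 0.71 ± 0.38 (SE). Its values were 8.04, 8.13, 7.36, 6.18 and 7.80 in the short cohort and 5.40 to 7.81 with a median of 6.25 in the long cohort, so the highest long-cohort dog overlapped 3 of the short-cohort dogs. MYC lay close to the RPTR level, with a mean of 6.89, and its difference was 0.45 with age as a covariate. Hidden refers to the unadjusted p only, as the study's own pathway analysis of all subtypes linked higher MYC to poor outcome. MRTO4, which helps build the large ribosomal subunit, differed by 0.81 ± 0.31 (SE) against 0.28 ± 0.33 (SE).

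Of the replication genes, MCM2, a subunit of the helicase that opens DNA for copying, read 8.18, 7.98, 7.78, 8.27 and 7.87 in the DFI < 100 dogs. The DFI > 300 dogs ran from 5.88 to 7.87 with a median of 6.77, and 4 of the 5 short-cohort dogs lay above all of them. The difference was 1.23 ± 0.35 (SE) and 1.02 ± 0.31 (SE) with all 15 dogs. Its partner MCM6 differed by 0.66 ± 0.20 (SE) and the clamp loader subunit RFC2 by 0.63 ± 0.21 (SE). DLGAP5, which stabilises the microtubules of the mitotic spindle, was a hidden gene with 10.11, 10.96, 10.40, 10 and 10.41 against 7.55 to 10.95 with a median of 9.21. Only dog 208513 of the long cohort read above the lowest short-cohort dog. Its difference was 1.16 ± 0.48 (SE) and was 0.60 ± 0.45 (SE) with all 15 dogs, and it was 0.52 with age as a covariate. Cyclin A2 (CCNA2), which pairs with the kinases of S phase and entry into mitosis, differed by 0.86 ± 0.35 (SE) and the cytokinesis kinesin KIF20B by 0.80 ± 0.33 (SE). FANCD2, the hub of the Fanconi pathway that repairs crosslinked DNA, differed by 1.09 ± 0.41 (SE) against 0.63 ± 0.46 (SE). The poorly differentiated tumor of the long cohort read 10.20 for FANCD2, above all 11 osteoblastic tumors. NUP88, a protein of the nuclear pore, differed by 1.03 ± 0.29 (SE) against 0.47 ± 0.38 (SE) on a probeset close to the RPTR level, and by 0.52 and 0.80 on brighter ones.

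Lists of other complexes and of energy metabolism averaged higher by smaller amounts, and the cohorts overlapped in the mean of each. Means per dog ran from 8.83 to 9.59 against 8.63 to 9.45 in the long cohort for mitochondrial ribosomal proteins. For glycolysis they ran from 9.45 to 10.58 against 9.27 to 10.27. Members of a list are not replicates, and leaving out a dog was not tried for these lists. Mitochondrial ribosomal proteins had 47 of 67 higher with a median of 0.22, and 7 of them higher at an unadjusted p under 0.05, beside 53.8% and 2.45% of all genes. The spliceosome list had 32 of 38 higher with a median of 0.24, and the proteasome list 25 of 31 with 0.21. PSMA3, a subunit of the proteasome core, was 1 of the 6 higher genes without overlap, with the small difference of 0.38 ± 0.13 (SE). Glycolysis genes had 15 of 17 higher with a median of 0.22. Respiratory complex I and complexes II to V had medians of 0.13 and 0.15, and the same lists gave 0.14 and 0.18 with all 15 dogs. CYC1, cytochrome c1 of complex III, differed by 0.90 ± 0.24 (SE), the mitochondrial ribosomal protein MRPL16 by 0.80 ± 0.31 (SE) and LSM3, which binds the U6 spliceosomal RNA, by 0.76 ± 0.23 (SE). The muscle-type phosphofructokinase PFKM differed by 0.95 ± 0.62 (SE), but by only 0.47 without dog 190030.

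A few single genes with larger differences stood outside these lists or in smaller ones. IGF2BP1, which binds messenger RNAs and stabilises that of MYC, read 7.28, 9.29, 9.85, 10.37 and 8.70 in the DFI < 100 dogs. The DFI > 300 dogs spread from 2.84 to 9.31 with a median of 5.01, with dogs 168327 and 208513 inside the short-cohort range and the other 4 below the RPTR level. Its difference was 3.50 ± 1.22 (SE) against 2.51 ± 1.05 (SE) with all 15 dogs. The study names this gene as IMP1 and reports it higher in the DFI < 100 dogs by PCR. That PCR covered the 15 array dogs and further dogs, with subtypes mixed. The gene was picked there from the arrays, before a sample found not to be tumor was removed. Its direction here is therefore not independent evidence. GPRC5C, an orphan receptor, read 8.96, 8.45, 9.37, 8.28 and 9.35 against 5.99 to 8.77 with a median of 7.27 and differed by 1.64 ± 0.44 (SE). Only dog 208513 of the long cohort reached the short-cohort range. PTGES, which makes prostaglandin E from its precursor, read 8.21, 6.90, 8.57, 7.46 and 9.86 against 4.80 to 8.48 with a median of 6.93. The cohorts overlapped widely, and 2 of the 5 short-cohort dogs lay above every long-cohort dog. Its difference of 1.59 ± 0.72 (SE) became 0.87 ± 0.67 (SE) with the 3 giant cell tumors, which read 6.21, 5.67 and 6.15, and the poorly differentiated tumor, at 5.95. All of these added readings lay below the RPTR level. A brighter probeset of PTGES, with a mean of 9.30, differed by 1.45 ± 0.69 (SE).

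**Figure D2:**
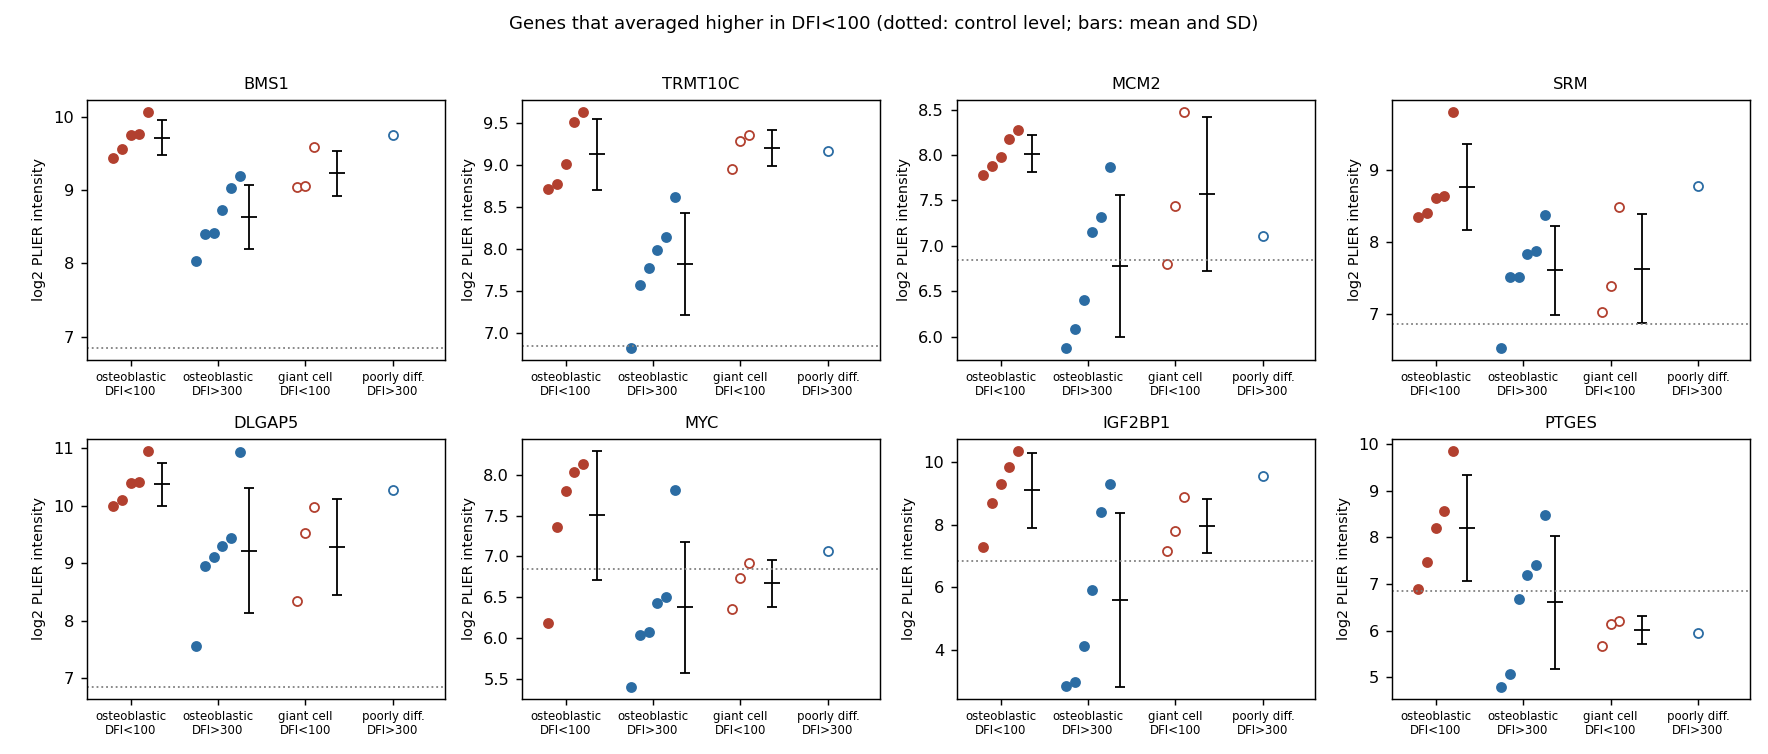
Log2 PLIER intensity (vertical axes) of 8 genes in each dog, by subtype and cohort (horizontal axes), with colours and bars as for the gene lists and the RPTR level of 6.85 as a dotted line. BMS1 and TRMT10C have no overlap between the osteoblastic cohorts, while the DFI > 300 values of IGF2BP1 run from 2.84 to 9.31.

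Collagen, adhesion and vessel genes averaged lower in the DFI < 100 tumors. The collagens had 13 of 14 members lower, with a median difference of -0.48 against -0.36 with all 15 dogs. Without dog 212759 the collagen median was -0.27, and without dog 208756 that of the integrins and laminins was also -0.27. Integrins and laminins had 15 of 17 lower, with medians of -0.44 and -0.23. Endothelial genes had 7 of 8 lower, with medians of -0.50 and -0.18. Fibroblast and mesenchymal genes had 17 of 20 lower, with -0.41 and -0.31, and smooth muscle and pericyte genes 10 of 11, with -0.34 and -0.35. Few members passed an unadjusted p of 0.05: 1 collagen, 3 fibroblast genes, 1 of the pericyte genes and 0 of the integrins, laminins and endothelial genes. For comparison, 2.53% of all genes above the level were lower at that threshold. Proteoglycans and matrix glycoproteins were mixed, with 15 of 24 lower, 9 higher, a median of -0.23, members from -1.64 to 1.93 and a difference of -0.078 between the cohort means of the list. The whole list of actin and myosin genes had 28 of 36 lower with a median of -0.19.

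The integrin and laminin means were 9.11, 8.65, 8.39, 8.96 and 8.89 in the DFI < 100 dogs and 8.46 to 9.90 with a median of 9.33 in the DFI > 300 dogs. Here 4 of the 6 long-cohort dogs lay above every short-cohort dog, and the other two, 193231 and 208513, lay just above the lowest of all 11. The endothelial means were 8.37, 8.15, 7.38, 7.46 and 8.04 against 7.32 to 8.89 with a median of 8.48, again with 4 of 6 above every short-cohort dog and 208513 the lowest of all. Without 208513 the endothelial median was -0.76, and without the 3 Greyhounds -0.82. The 3 giant cell tumors had endothelial means of 8.26, 8.79 and 9.99, and 2 of them were above every osteoblastic DFI < 100 tumor. Of 5 defining endothelial markers, 3 were above the RPTR level and all 5 averaged lower, with summed linear intensities of 973 to 1511 in the short cohort and 743 to 2580 in the long cohort. Of 4 smooth muscle and pericyte markers, 1 was above the level and 3 averaged lower, with sums of 650 to 5099 and 806 to 6558. The part of these cell types in the differences of the collagen and adhesion genes was not tested.

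**Figure D3:**
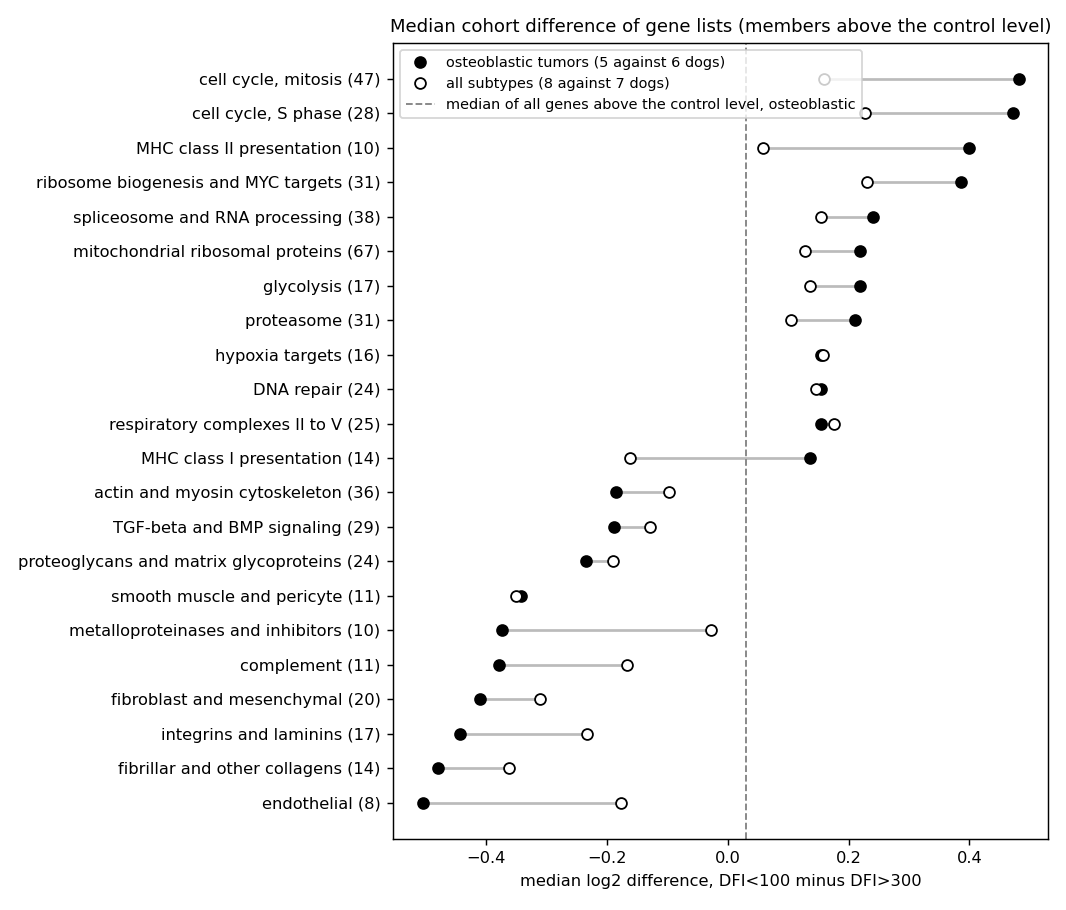
Median log2 difference (horizontal axis, DFI < 100 minus DFI > 300) of 22 gene lists with at least 8 members above the RPTR level, whose number stands in parentheses, for the osteoblastic tumors (filled) and for all subtypes (open), with the median of all genes above the level as a dashed line. The 22 were picked for the lowest and the highest osteoblastic medians. Of 53 lists examined, those with medians in between, those with fewer members and the genes named by the study are not shown. The mitosis list moves from 0.48 to 0.16 and the endothelial list from -0.50 to -0.18 when all subtypes are mixed.

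Fibulin 5 (FBLN5), which organises elastic fibres, was a hidden gene and the lowest member of that mixed matrix list. It read 8.13, 7.68, 8.21, 7.44 and 8.44 in the DFI < 100 dogs. Of the DFI > 300 dogs, 193231 read 7.10, below all of these, and the other five read 9.65 to 10.58, above all of them. The difference was -1.64 ± 0.56 (SE) against -1.001 ± 0.49 (SE) with all 15 dogs, and the giant cell tumors read 9.43, 9.31 and 9.47. Fibulin 1 (FBLN1) differed by -1.35 ± 0.46 (SE) on its brightest probeset and -1.01 ± 0.40 (SE) with all 15 dogs. Another probeset of FBLN1 above the RPTR level, with a mean of 9.45, differed by 0.07, and 2 more differed by -0.93 and -1.51, so the probesets of this gene disagreed. The chains of collagen type IV, the network of basement membranes, both averaged lower. COL4A2 read 10.17, 10.49, 9.91, 9.84 and 10.63 against 10.08 to 12.24 with a median of 11.57, and 4 of 6 long-cohort dogs lay above every short-cohort dog. Its difference was -1.06 ± 0.42 (SE) against -0.65 ± 0.42 (SE), and that of COL4A1 was -0.81 ± 0.41 (SE) against -0.44 ± 0.41 (SE). COL14A1, a collagen that sits on fibrils, differed by -1.07 ± 0.67 (SE), with dogs 168327 and 208513 the only ones of the 11 above the RPTR level, and by -0.65 without 168327.

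Integrin chains ITGA5 and ITGB1, which together bind fibronectin, differed by -0.70 ± 0.33 (SE) and -0.50 ± 0.26 (SE). TIMP3, an inhibitor of matrix proteases, differed by -1.10 ± 0.54 (SE) against -0.55 ± 0.46 (SE) and by -0.60 on a dimmer probeset, and SPARCL1, a secreted matrix protein prominent in vessels, by -1.09 ± 0.44 (SE) against -0.50 ± 0.57 (SE). LXN, an inhibitor of carboxypeptidases, was bright in every tumor. It read 9.34, 10.65, 10.16, 10.45 and 10.49 against 10.40 to 12.84 with a median of 11.56, and its difference of -1.38 ± 0.48 (SE) became -0.68 ± 0.49 (SE) with all 15 dogs. VCAM1, the adhesion molecule that holds leukocytes to activated endothelium and marrow stroma, read 6.23, 7.07, 8.01, 5.68 and 7.74 against 6.26 to 11.13 with a median of 9.29, and 4 of the 6 long-cohort dogs lay above every short-cohort dog. Its difference was -2.01 ± 0.82 (SE) against -1.05 ± 0.80 (SE), and the DFI < 100 values of 6.23 and 5.68 lay below the RPTR level. The giant cell tumors read 9.88, 9.79 and 9.62 for VCAM1, above every osteoblastic DFI < 100 tumor.

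Of the endothelial genes, the sialomucin endomucin (EMCN) differed by -0.74 ± 0.35 (SE), the cell-junction protein ECSCR by -0.77 ± 0.49 (SE) and endoglin (ENG), a co-receptor for TGF-beta, by -0.78 ± 0.52 (SE). With all 15 dogs these were -0.26, -0.19 and -0.29. Leaving out dog 208756 took ECSCR to -0.42 and ENG to -0.48. PDGFRB, the receptor that marks pericytes and fibroblasts, read 7.503, 6.32, 6.83, 6.59 and 7.27 against 6.91 to 9.25 with a median of 7.55 and differed by -0.89 ± 0.39 (SE). IGFBP7, a secreted protein that binds insulin-like growth factors, differed by -0.85 ± 0.31 (SE) on its brightest probeset. EBF1, a transcription factor of B cells and of stromal progenitors, read 7.05, 9.58, 7.88, 10.33 and 7.74 against 9.64 to 10.91 with a median of 10.30. Here 4 of the 5 short-cohort dogs lay below every long-cohort dog, and dog 212759 lay among them. Its difference was -1.74 ± 0.54 (SE) against -1.24 ± 0.48 (SE). The chemokines CXCL14 and CXCL12 differed by -2.30 ± 0.85 (SE) and -1.55 ± 0.97 (SE), with CXCL12 at -0.98 without dog 208513.

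Several of the lower genes are not matrix genes. SEPTIN11, a filament-forming GTPase of the cytoskeleton, read 6.94, 7.26, 6.002, 6.77 and 5.67 against 7.26 to 8.86 with a median of 8.13, and the cohorts met at 7.26 without overlapping. Its difference was -1.58 ± 0.35 (SE) against -1.19 ± 0.40 (SE) with all 15 dogs. The 13 lower genes without overlap on their brightest probeset were FNBP1L, FRS2, GNG11, JMJD1C, LSM14A, RAP1B, RCHY1, RETREG2, RNF13, SEPTIN11, SLU7, SYNJ1 and LOC609896, among them the FGF receptor adaptor FRS2 and the small GTPase RAP1B. GNG11, a gamma subunit of heterotrimeric G proteins, also had no overlap, with 8.96, 8.62, 9.25, 9.15 and 8.76 against 9.58 to 11.16 with a median of 9.71. Its difference was -1.02 ± 0.29 (SE), and its brighter probeset, with a mean of 11.7, differed by -0.72. WWTR1, also called TAZ, a co-activator at the end of the Hippo pathway, read 9.87, 9.54, 10.69, 9.21 and 10.17 against 10.29 to 11.63 with a median of 11.26. The giant cell tumors, at 11.27, 11.05 and 11.08, and the poorly differentiated tumor, at 11.16, were all above every osteoblastic DFI < 100 tumor. The difference was -1.26 ± 0.30 (SE) within the subtype and -0.80 ± 0.32 (SE) with all 15 dogs.

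Ankyrin G (ANK3), which ties membrane proteins to spectrin, was a hidden gene. It read 5.40, 7.41, 4.42, 6.40 and 5.48 against 6.19 to 9.09 with a median of 8.22, with 3 of 5 short-cohort dogs below every long-cohort dog. The difference was -2.21 ± 0.59 (SE) against -1.24 ± 0.64 (SE), and 4 of the 5 short-cohort values were below the RPTR level. DDAH2, an enzyme that clears an inhibitor of nitric oxide synthesis, differed by -1.26 ± 0.34 (SE). The stress granule protein G3BP2 differed by -1.01 ± 0.28 (SE) against -0.46 ± 0.34 (SE), but its brighter probesets, with means of 10.03 and 8.26, differed by -0.63 and -0.29. Cyclin G2 (CCNG2), which is raised in cells that leave the cycle, read 6.57, 7.76, 7.43, 7.04 and 7.34 against 7.27 to 9.37 with a median of 8.69 and differed by -1.26 ± 0.39 (SE). TXNIP, which binds thioredoxin and limits glucose uptake, differed by -1.28 ± 0.54 (SE) against -0.65 ± 0.51 (SE). WIF1, a secreted antagonist of WNT ligands, read 10.50, 12.87, 9.82, 12.98 and 11.02 against 11.95 to 13.38 with a median of 12.76 and differed by -1.34 ± 0.57 (SE), with its other probesets at -1.99 and -2.08. The WNT list as a whole was split, with 9 of 20 higher and a median of -0.10.

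**Figure D4:**
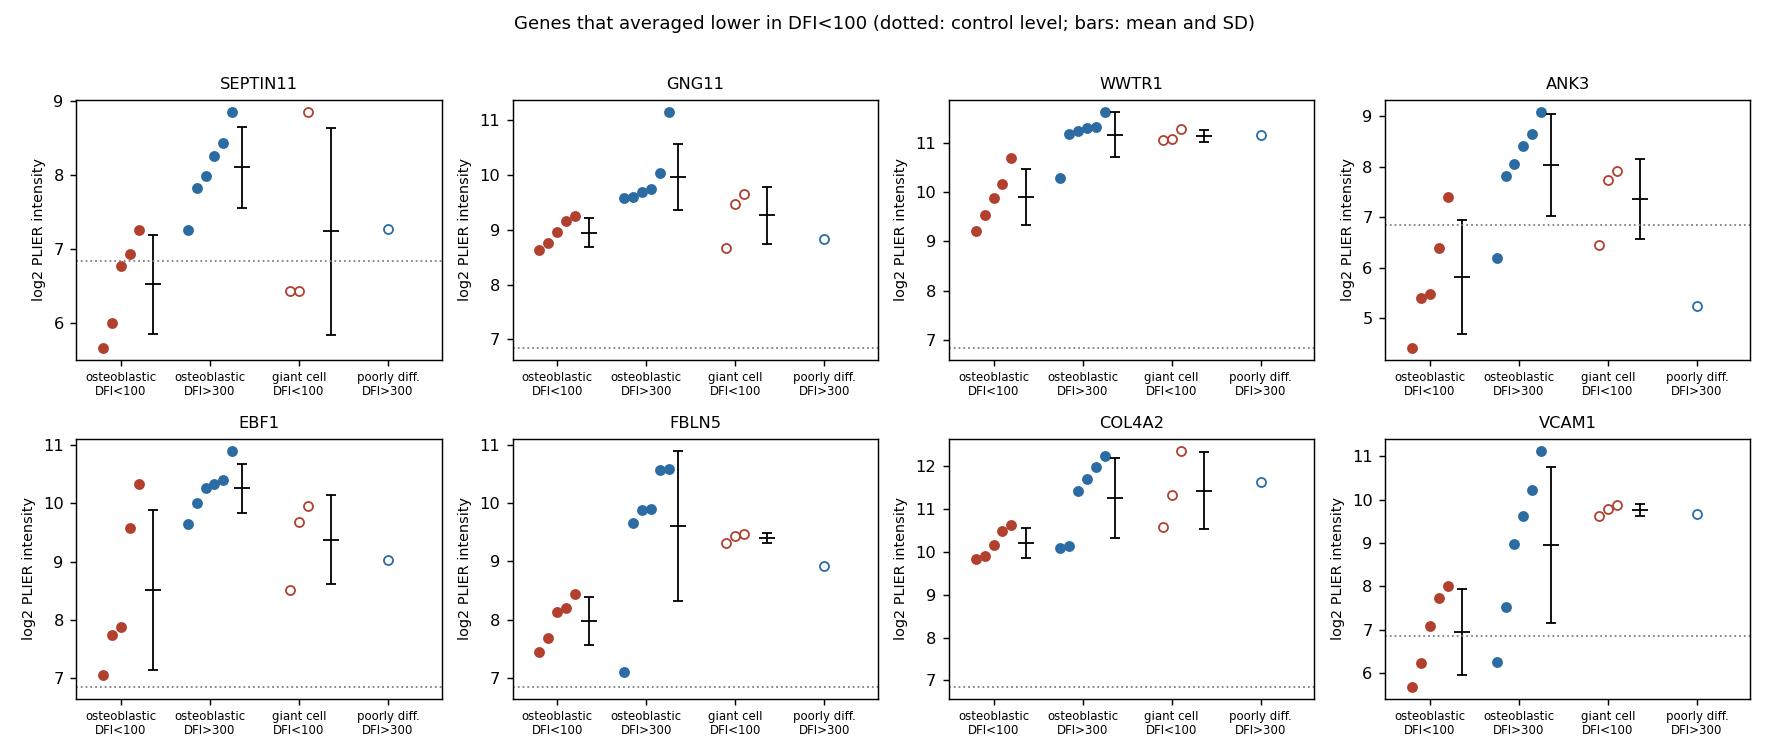
Log2 PLIER intensity (vertical axes) of 8 genes in each dog, by subtype and cohort (horizontal axes), with colours and bars as for the gene lists and the RPTR level of 6.85 as a dotted line. SEPTIN11 and GNG11 have no overlap between the osteoblastic cohorts, and the 3 giant cell tumors lie above all 5 osteoblastic DFI < 100 tumors for WWTR1, FBLN5 and VCAM1.

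The 10 higher and 10 lower hidden genes whose difference shrank most when the subtypes were mixed all kept their sign. The higher ones were APOC1, DLGAP5, DNPH1, FANCD2, GPAA1, GPRC5C, NUP88, PTGES, SLC25A27 and SRM. The lower ones with a gene name other than a locus number were ANK3, CTSO, FBLN5, LXN, SPARCL1, TRIM13, TXNIP and VCAM1. GPAA1 differed by 1.04 ± 0.36 (SE) on the probeset used and by 0.63 and 0.75 on brighter ones. DNPH1, which cleaves a nucleotide, went from 1.05 ± 0.43 (SE) to 0.36 ± 0.46 (SE). These genes were chosen for this shrinkage, so their lower values with all 15 dogs are no test of it. Cohort and subtype cannot be told apart for the giant cell tumors, which occurred only in the short cohort.

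**Figure D5:**
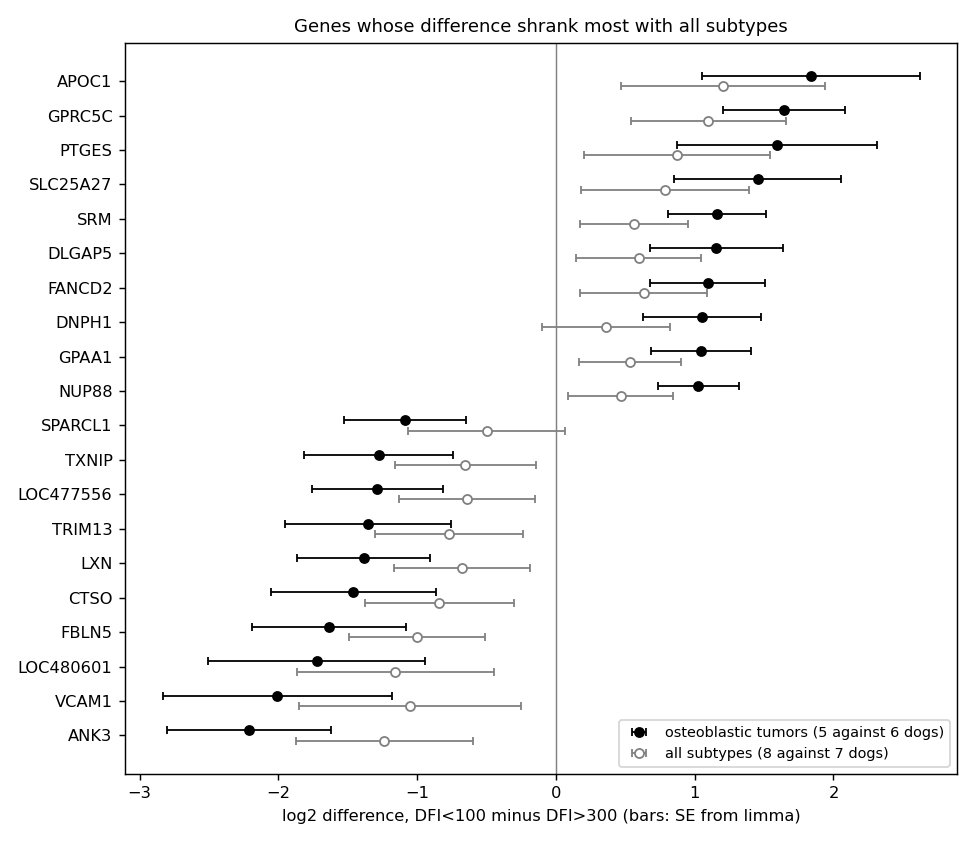
Log2 difference (horizontal axis, DFI < 100 minus DFI > 300) with its SE from limma for the 20 hidden genes whose difference shrank most, in the osteoblastic tumors (filled) and in all subtypes (open). ANK3 goes from -2.21 to -1.24 and SRM from 1.16 to 0.56.

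Lists of osteoclast and immune genes changed sign or size between the comparisons, but their values varied widely between dogs. The osteoclast list had a median of -0.14 in the osteoblastic tumors, with 4 of 10 members higher, and 0.21 with all 15 dogs, where 9 were higher. Its largest difference in the osteoblastic tumors, 1.40, was that of TNFRSF11B, which blocks osteoclast formation and is no osteoclast marker. The means of the list were 9.52, 8.53, 7.29, 8.80 and 10.21 in the DFI < 100 dogs and 6.22 to 10.18 with a median of 9.77 in the DFI > 300 dogs, and the giant cell tumors, at 9.93, 10.15 and 10.69, lay in the upper part of that range or above it. The median turned positive, to 0.22, without dog 208756. MMP9, a gelatinase of osteoclasts and neutrophils, differed by -0.77 ± 1.27 (SE) against 0.086 ± 1.08 (SE), and TCIRG1, a subunit of the osteoclast proton pump, by -0.49 ± 0.59 (SE) against 0.16 ± 0.59 (SE). Without dog 208756 MMP9 differed by 0.043, and without 180119 TCIRG1 differed by -0.19. TNFRSF11B, or osteoprotegerin, the decoy that keeps the osteoclast-forming ligand from its receptor, read 8.11, 8.78, 9.69, 5.58 and 8.25 against 4.43 to 8.33 with a median of 6.93. Its difference was 1.40 ± 0.83 (SE) against 0.062 ± 1.06 (SE), and the giant cell tumors read 1.81, 4.28 and 5.86. These giant cell values all lay below the RPTR level, so the change with all 15 dogs rests in part on background signal.

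MHC class II genes, which present antigen to helper T cells, had 8 of 10 members higher with a median of 0.40, against 0.059 with all 15 dogs. The median was 0.077 without dog 190030, 0.06 with age as a covariate and -0.14 without the Greyhounds. CD74, the invariant chain, differed by 0.57 ± 0.55 (SE), HLA-DRB1 by 0.43 ± 0.51 (SE) and the protease LGMN by -0.61 ± 0.33 (SE), with its other probesets at -0.53 to -0.93. CD74 was at 0.23 and HLA-DRB1 at 0.088 without dog 190030, and HLA-DRB1 was at -0.061 without the Greyhounds. The interferon list was split at 9 higher and 8 lower, with a median of 0.11 against -0.34. Its median was -0.13 without dog 184844 and -0.22 with age as a covariate. IFI44, an interferon-induced gene, differed by -0.66 ± 0.51 (SE), and by -0.26 without dog 208756. No member of these 3 lists passed an unadjusted p of 0.05.

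Genes that the study itself names were chosen on these arrays, so their direction is not independent evidence. Of 45 measured, 17 were above the RPTR level, 4 higher and 13 lower. CCDC3, a secreted coiled-coil protein, read 6.34, 7.88, 7.06, 7.35 and 6.22 against 6.96 to 11.45 with a median of 9.18, and 3 of the 6 long-cohort dogs read above 10. Its difference was -2.18 ± 0.82 (SE) against -1.93 ± 0.69 (SE). KIAA1191 differed by -0.83 ± 0.22 (SE), the cytolinker dystonin (DST) by -1.15 ± 0.43 (SE) and the neuropeptide NPY by -2.50 ± 1.24 (SE). CDO1, which oxidises cysteine, differed by 1.77 ± 0.91 (SE) and was 2.81 in tumors of the humerus and femur alone. GPC3, a glypican that modulates hedgehog signals, differed by -2.11 ± 1.33 (SE), but the long-cohort dogs ran from 3.90 to 11 with a median of 8.81. The hedgehog list had only 4 of 17 measured members above the RPTR level, with a median of -0.0067.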

How the data were processed

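Total RNA of 15 primary tumors was measured on Affymetrix Canine 2.0 arrays, 1 per dog. The authors deposited PLIER intensity values made in Affymetrix Expression Console. No source used here gives the version, the probe-level normalization or which of 2 hybridisation batches held which array, so batch was not tested. RMA values and PCR data of the study are not analysed here.

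Intensities were put on the log2 scale with no offset. The 64 RPTR reporter controls and 111 Affymetrix controls were left out of 43035 probesets, and 42860 were fitted by cohort over the 11 osteoblastic arrays with limma 3.58.1 (lmFit and eBayes) in R 4.3.3, with Benjamini-Hochberg adjustment over all. Probesets were named by the platform annotation, 29254 with 1 symbol, 439 with several and 13167 with none. Each of 53 gene lists used each gene's brightest probeset, and not every list is described. The genes described were the 15 of smallest p in each direction among probesets above the RPTR level with at least a 2-fold difference and an unadjusted p under 0.05, the 10 hidden genes in each direction that shrank most, up to 3 members of each list by p, and the genes the study names. Members and lists were chosen with earlier results of these data known. Alternatives were other tests, weights, offset, normalization, levels, covariates and sets of dogs. The fits were tested on simulated data. Each p sets a cohort difference against the spread between dogs, and the number of arrays limits the precision.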

Additional observations from a re-analysis of the deposited data

Results flagged for a closer look

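These values were picked out because 1 dog stood apart from the rest of its osteoblastic cohort: its gap to the nearest other dog, as a share of the cohort's whole range, passed Dixon's 95% critical value for a cohort of its size. Of 164 groups tested 11 passed, and chance passes about 1 in 20. SRM was highest of its DFI < 100 cohort in dog 173175 at 9.82, with the others at 8.34 to 8.63 (gap share 0.803), and the cohort difference without that dog was 0.90. NUP88 was lowest of its DFI < 100 cohort in dog 212759 at 7.08, with the others at 7.55 to 7.69 (gap share 0.763), and the cohort difference without that dog was 1.13. WWTR1 was lowest of its DFI > 300 cohort in dog 193231 at 10.29, with the others at 11.18 to 11.63 (gap share 0.665), and the cohort difference without that dog was -1.44. GNG11 was highest of its DFI > 300 cohort in dog 190030 at 11.16, with the others at 9.58 to 10.03 (gap share 0.716), and the cohort difference without that dog was -0.78. FBLN5 was lowest of its DFI > 300 cohort in dog 193231 at 7.10, with the others at 9.65 to 10.58 (gap share 0.733), and the cohort difference without that dog was -2.14. EMCN was lowest of its DFI > 300 cohort in dog 208513 at 7.39, with the others at 8.61 to 9.32 (gap share 0.633), and the cohort difference without that dog was -1.002. DST was highest of its DFI > 300 cohort in dog 190030 at 11.76, with the others at 9.09 to 10.05 (gap share 0.642), and the cohort difference without that dog was -0.80. CYC1 was lowest of its DFI < 100 cohort in dog 173175 at 10.04, with the others at 10.82 to 11.04 (gap share 0.779), and the cohort difference without that dog was 1.07. TIMP3 was lowest of its DFI > 300 cohort in dog 193231 at 7.17, with the others at 9.57 to 10.53 (gap share 0.716), and the cohort difference without that dog was -1.58. APOC1 was highest of its DFI > 300 cohort in dog 180119 at 11.10, with the others at 6.02 to 7.78 (gap share 0.654), and the cohort difference without that dog was 2.49. The collagen list mean was highest of its DFI > 300 cohort in dog 168327 at 11.55, with the others at 10.25 to 10.74 (gap share 0.626), and the cohort difference without that dog was -0.30.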

How the results depend on the processing

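No paired analysis was possible because each dog belongs to 1 cohort and the dog numbers are not shared between cohorts. 69 of the 72 genes followed kept their sign under all 25 alternatives, and 4 of 1800 gene values reversed: TCIRG1 at 0.16 and MMP9 at 0.086 with all 15 dogs, MMP9 at 0.043 without dog 208756 (range -1.53 to 0.043 over the dogs left out) and HLA-DRB1 at -0.061 without Greyhounds. The t-test, the limma fit with trend and robust options and the fit of 15 arrays in 4 groups leave the difference of means unchanged. No sign could reverse in those. The genes were also chosen on these same arrays, so their kept signs are no independent support. The adjusted count of 0 became 2 in upper limb segments, 4 without Greyhounds and 0 to 1 with 1 dog left out, with none of these above the RPTR level.

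At an unadjusted p under 0.05, the 330 higher probesets above the level became 535 with array weights, 190 with age as a covariate and 197 to 513 with 1 dog left out, and the 436 lower ones 660 without Greyhounds and 335 to 684 with 1 dog left out. Quantile normalization turned that split to 471 higher and 361 lower, from 43.1% to 56.6% higher. The share was 34.2% with age and 32.7% without Greyhounds. With at least a 2-fold difference, the 33 higher became 58 with array weights, 57 with sex as a covariate, 106 in upper limb segments, 88 without Greyhounds, 10 with all 15 dogs, 7 over 3-fold and 10 to 74 with 1 dog left out. The 130 lower became 256 in upper limb segments, 329 without Greyhounds, 43 with all 15 dogs, 27 over 3-fold and 93 to 257 with 1 dog left out. The highest RPTR control, 13.4 on the log2 scale, left 0 in all 4 counts and no member in most lists. The cause of these changes was not tested, beyond the fewer probesets that stricter levels and folds keep.

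List medians ranged, with 1 dog left out, from -0.61 (without 173175) to -0.27 (without 212759) for fibrillar and other collagens (-0.48 with all 11), from -0.55 (without 208513) to -0.27 (without 208756) for integrins and laminins (-0.44 with all 11), from -0.64 (without 208513) to 0.22 (without 208756) for osteoclast (-0.14 with all 11), from -0.76 (without 208513) to -0.35 (without 180119) for endothelial (-0.50 with all 11) and from -0.58 (without 208513) to -0.30 (without 168327) for fibroblast and mesenchymal (-0.41 with all 11). The ranges were 0.28 (without 190030) to 0.49 (without 193231) for ribosome biogenesis and MYC targets (0.39), 0.33 (without 190030) to 0.63 (without 208513) for cell cycle, S phase (0.47), 0.23 (without 190030) to 0.68 (without 208513) for cell cycle, mitosis (0.48), -0.13 (without 184844) to 0.19 (without 208756) for interferon response (0.11) and 0.077 (without 190030) to 0.67 (without 180119) for MHC class II presentation (0.40). For fibrillar and other collagens the median was -0.034 with the highest RPTR control as level. For osteoclast the median was 0.0017 with age as a covariate, 0.017 with sex as a covariate, 0.15 with the 3 prime to 5 prime ratio as a covariate, 0.21 with all 15 dogs. For interferon response the median was -0.22 with age as a covariate, -0.11 with sex as a covariate, -0.40 in upper limb segments, -0.071 without Greyhounds, -0.34 with all 15 dogs, -0.018 when the probesets of each gene were averaged. For MHC class II presentation the median was -0.14 without Greyhounds.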

Other observations

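DLA88, a classical MHC class I gene of the dog, was chosen after its values were seen. One of its probesets read 12.99, 12.49, 12.31, 12.52 and 13.17 in the DFI < 100 dogs, while the DFI > 300 dogs ran from -7.64 to 13.00 with a median of 6.45. The DFI > 300 mean, 5.27, was below the RPTR level, which the probeset passed through its bright arrays. The cohort means differed by 7.43 ± 2.96 (SE), a size taken in part against signal at background, and by 4.84 without dog 180119. Another probeset of the gene, with a mean of 11.4, differed by 0.12 ± 0.42 (SE). The MHC class I genes are a family of similar and polymorphic members, so which transcripts each probeset reads is uncertain. The MHC class I list had 10 of 14 members higher with a median of 0.14, against -0.16 with all 15 dogs. The TGF-beta and BMP list had 18 of 29 members lower with a median of -0.19, and cytosolic ribosomal proteins 40 of 49 higher with 0.076.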
